A study of Homo sapiens with 10 samples.

Results

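The genes described here encode the proteins of the cytosolic ribosome. They were taken from the table of TPM (transcript abundance per unit of length, scaled to one fixed total in every library) by name, as the genes whose symbol is RPL or RPS with a number and, for some, the suffix A, L, X or AL, together with the stalk genes RPLP0, RPLP1 and RPLP2 and the laminin receptor gene RPSA, and without RPL36A. This gave 92 rows of the 64940 genes in the table, which carry 81 gene names. Of these rows, 11 repeat the name of a listed member at another locus (among them 5 for RPS18 and 3 for RPS9) and are listed at 0 in all libraries. The rule uses names only and no measured value.

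RNA was sequenced from 2 control and 2 oeDAZL libraries made from H9, an established human embryonic stem cell (hESC) line. The oeDAZL group holds human primordial germ cell-like cells (hPGCLCs) that overexpress DAZL, a germ cell RNA-binding protein, which the study delivered by lentivirus together with a fluorescent marker. The control group is described by its sample labels as wild-type H9-derived cells after spontaneous differentiation, whereas the design text calls these cells PGCLCs, and the sources used here do not settle if these cells were given the BMP4 and BMP8a of the hPGCLC protocol or a virus without DAZL. The question put to these libraries was how gene expression differs between oeDAZL and control cells. H9 is a single line, nothing in the labels says whether replicates came from separate cultures, and the P-values below measure only the spread between these libraries. The test draws the spread of each gene toward that of genes at a like level, so a gene's P and SE do not rest on its own replicates alone. The promoter that drives DAZL is not given in the sources used here.

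DAZL, the gene whose level checks the labels, read 0 and 0.0333 TPM in control, and 102 and 101 TPM in oeDAZL. Because TPM holds no read number, the depth of the libraries is unknown. The share of mitochondrial genes was higher in both oeDAZL libraries, at 14.1% and 13.9% against 12.5% and 13.3% in control. Of 7 markers of primordial germ cells, whose summed level was 58.1 to 71.2 TPM over the 4 libraries, TFAP2C alone made up 44.3 to 53.9 TPM; SOX17, PRDM1, NANOS3, DPPA3 and DND1 each stayed at or below 3.35 TPM, and none of the 6 that were tested passed an unadjusted P of at most 0.05 in limma, a linear model fitted across all tested genes (called, below). Taken alone, the low levels of those 5 genes, also seen in control, go against the label of the oeDAZL cells as hPGCLCs. KIT was at 6.23 and 6.24 TPM in oeDAZL. LIN28A and POU5F1, listed here under pluripotency, were at 417 and 401 TPM and at 22.4 and 20.4 TPM in oeDAZL. SOX2 and NANOG, the other genes of that list, were at 2.16 and 2.04 TPM and at 0.813 and 0.532 TPM in oeDAZL. Whether the cells match their label was not tested. The 5 markers of amnion and trophoblast summed to 2019 to 2184 TPM, of which GABRP made up 1208 to 1408 TPM and KRT7 567 to 675 TPM. Of the tested markers of other cells at the same P, POU5F1 was higher in oeDAZL among 3 pluripotency genes. Among 4 of mesoderm and mesenchyme, 1 gene was higher and 2 were lower. The 5 genes of that list summed to 1480 to 1559 TPM, mostly from HAND1 (958 to 1250 TPM) and COL3A1 (220 to 583 TPM), with TBXT at or below 2.49 TPM. In oeDAZL 2 of 5 of amnion and trophoblast were lower, as were 1 of 1 neural and 1 of 2 endoderm genes. The part of these markers in the ribosomal protein values was not tested. In bulk libraries such as these, fewer cells of a type and less RNA per cell cannot be told apart.

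A cytosolic ribosome joins a small subunit, which reads the mRNA, to a large subunit, which forms peptide bonds, and nearly every one of its proteins is present as a single copy. Their mRNAs are among the most abundant of a dividing cell, and most carry a 5′ terminal oligopyrimidine (TOP) tract, a C at the cap followed by a run of C and U that makes their translation responsive to mTORC1 through LARP1. Ribosomal proteins accumulate in near-equal numbers because copies that do not join a ribosome are degraded.

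The start of the transcript is shown for members on which the description below turns, since the TOP tract is the sequence feature these mRNAs share. Each run reads 5′ to 3′ from RefSeq (GRCh38.p14), with 5 bases before the listed start and 15 from it, and capitals mark an unbroken run of C and T that begins with C at the start itself. The first 8 belong to the stalk proteins and to other members with a tract, and the last 5 to members whose listed start has no tract of 5 or more.
RPLP0 (chr12:120201097-120201116, minus strand): gaggcCCTTCTCTCgccagg
RPLP1 (chr15:69452813-69452832, plus strand): gagagCCCCTTTCCTCagct
RPLP2 (chr11:809962-809981, plus strand): gccttCCTTTTCCTCCCTgt
RPS6 (chr9:19380222-19380241, minus strand): tggccCTCTTTTCCgtggcg
RPL7A (chr9:133348213-133348232, plus strand): ctttcCTTTCTCTCTCCTCC
RPL38 (chr17:74203673-74203692, plus strand): tcgttCTTTTTCgtcctttt
RPS27 (chr1:153990757-153990776, plus strand): tcgctCCTTTCCggcggtga
RPL39 (chrX:119791616-119791635, minus strand): agcttCCCTCCTCTTCCTTT
RPL3 (chr22:39319609-39319628, minus strand): ccggcCTCTaccggcgggat
RPL36AL (chr14:49620612-49620631, minus strand): cctttCCTgttaggcgagag
RPL27 (chr17:42998414-42998433, plus strand): aggttagcggaagtgtcctt
RPS27L (chr15:63157463-63157482, minus strand): cgagcgcagatcgcttgcag
RPL10L (chr14:46651767-46651786, minus strand): taagagagcgcattttgact
The search was for C at the start opening a run of at least 5 C or T on the transcribed strand. Of the 64 member genes matched in the RefSeq table, 45 (70.3%) have such a start at 1 or more of their listed starts, against 5.14% of all 27305 genes in that table. RPL39 has the longest run, of 19 bases, which goes beyond the stretch shown. A listed start without these letters says only that they are not at that position.

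The ribosomal protein genes together took 96167 and 90711 TPM in control and 92853 and 93170 TPM in oeDAZL, which is 9.62%, 9.07%, 9.29% and 9.32% of each library. Both oeDAZL libraries lay between the 2 control libraries. The control mean was 93439 ± 3858 (SD, n = 2) and the oeDAZL mean was 93012 ± 224 (SD, n = 2), a ratio of 0.995. With 2 libraries against 2, an exact permutation test of such a sum cannot give a two-sided p under 0.333. The large subunit with the stalk outweighed the small subunit by similar factors throughout, 1.59 and 1.56 in control and 1.54 and 1.57 in oeDAZL.

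On the TPM scale, which is per transcript length, the members spanned a wide range of levels in the same cells. Of the 81 gene names, 79 passed the filter of a mean of at least 1 TPM over the 4 libraries (44 large subunit, 32 small subunit and 3 stalk), and RPL10L and RPL3L did not. The median of the 79 mean levels was 1060 TPM, 43 members lay at or above 1000 TPM and 76 at or above 100 TPM, and the highest was 500 times the lowest. The 10 highest, which include RPS2, RPLP0, RPL3, RPS3A, RPL13A, RPL7A, RPL26 and RPL8, held 30.4% of the summed TPM, and 21 members held 50% of it. The lowest 3 were RPS28, RPS27L and RPL39L.

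**Figure D1:**
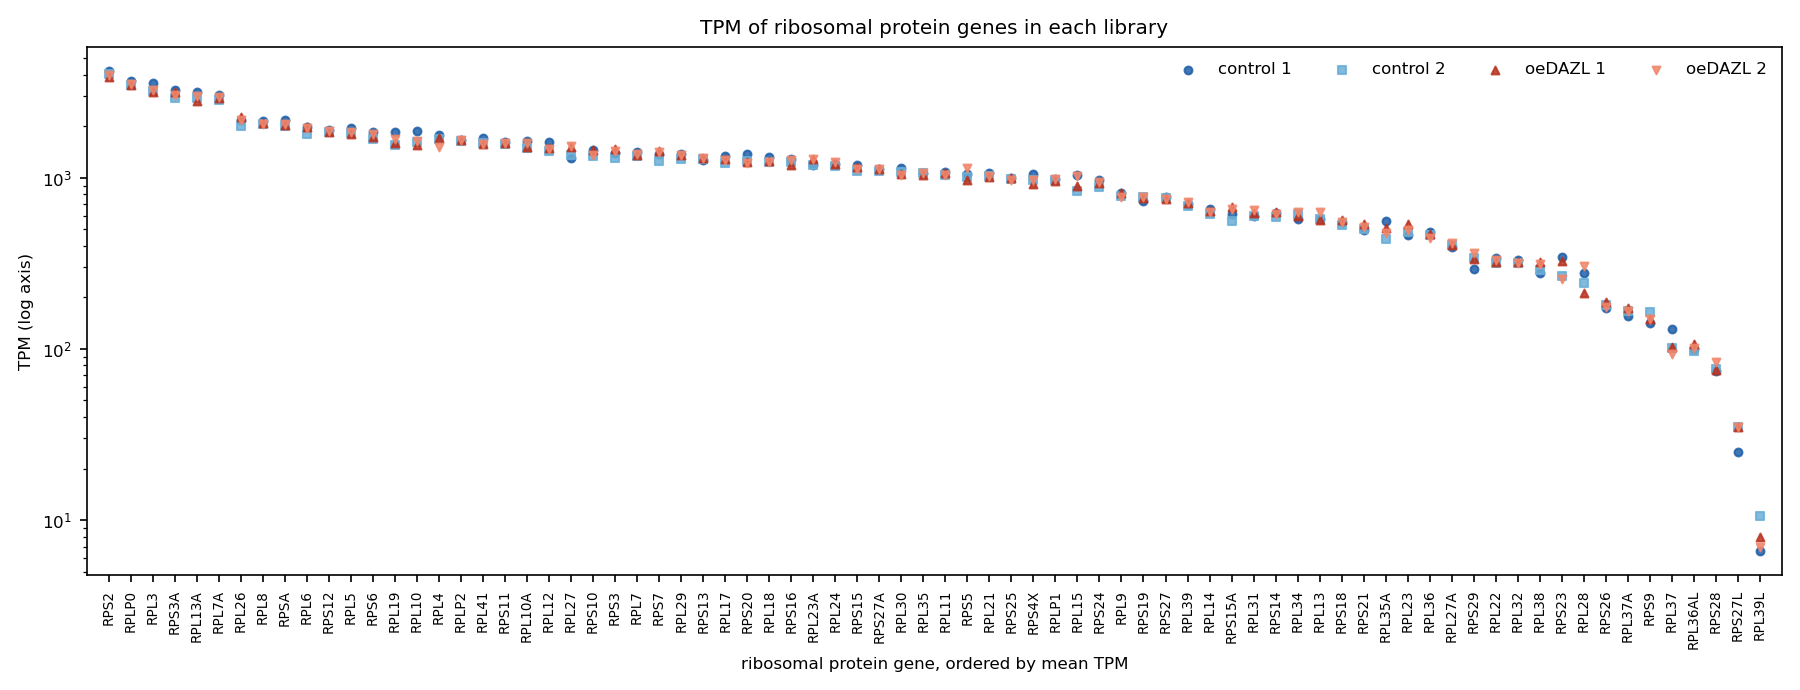
TPM on a log axis of 76 of the 79 tested ribosomal protein genes, ordered by mean TPM, with 1 symbol per library (2 control in blue, 2 oeDAZL in red). The 4 symbols of most genes overlap, from RPS2 on the left down to RPL39L on the right.

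The ribosomal stalk recruits the elongation factors to the large subunit. RPLP0, its base (gene ENSG00000089157.16, chr12:120196699-120201235, minus strand, GENCODE on hg38), was at 3680 and 3480 TPM in control and 3463 and 3536 TPM in oeDAZL. The groups overlapped, and the fold change on the log2(TPM + 1) scale was -0.03 (SE 0.06). RPLP2, one of the acidic proteins that RPLP0 carries, was at 1664 and 1639 TPM in control and 1672 and 1654 TPM in oeDAZL, the steadiest of the 79 tested members, with a coefficient of variation of 0.856% over the 4 libraries. RPLP1, its partner, was at 988 and 966 TPM in control and 956 and 980 TPM in oeDAZL. The groups overlapped for all 3 stalk genes.

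Among the small subunit proteins, RPS6, the classical substrate of the S6 kinases, was at 1845 and 1681 TPM in control and 1721 and 1794 TPM in oeDAZL. Both oeDAZL values lay between the control values, and the log2 fold change was -0.003 (95% interval -0.16 to 0.16). RPS2, the most abundant member, was at 4202 and 4014 TPM in control and 3890 and 3965 TPM in oeDAZL. Both oeDAZL libraries were below both control libraries for RPS2, by -0.06 on the log2 scale, with an unadjusted P of 0.310 in limma, and the gene was called lower, at -0.10, without control 2. RPS3A was at 3255 and 2906 TPM in control and 3158 and 3045 TPM in oeDAZL. For RPS3A control 1 was the highest library and control 2 the lowest.

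Among the large subunit proteins, RPL3, which lies near the centre that forms peptide bonds, was at 3578 and 3200 TPM in control and 3171 and 3266 TPM in oeDAZL. RPL13A was at 3180 and 2914 TPM in control and 2813 and 2993 TPM in oeDAZL. RPL7A was at 3034 and 2848 TPM in control and 2907 and 2973 TPM in oeDAZL. In each of these 3 genes control 1 was the highest library and the groups overlapped, and RPL3 was called lower, at -0.15, without control 2. RPL26 was at 2173 and 2016 TPM in control and 2258 and 2180 TPM in oeDAZL, with both oeDAZL libraries above both control libraries, and was called higher, at 0.14, without control 1. RPL8 was at 2154 and 2049 TPM in control and 2075 and 2050 TPM in oeDAZL. Control 1 was again the highest library.

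In the comparison of oeDAZL with control, the members moved little. Of the 79 tested members, 4 passed an unadjusted P of at most 0.05 in limma, all of them higher in oeDAZL, and none was lower. Over all 16687 tested genes 20.2% passed this threshold, 5.02% higher and 15.2% lower. The share of members that were higher, 5.06%, is thus close to that of all genes, and the members held no lower call. No member changed by at least 2-fold at that P, where 0.689% of all genes did so. No member had a Benjamini-Hochberg adjusted p under 0.05 in limma, where 0.0599% of all genes did so.

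The 4 members that passed the unadjusted threshold were RPL27, RPL38, RPS15A and RPL23A, and the last of these was chosen for naming after its values were seen. RPL27 (chr17:42998273-43002959, plus strand), a large subunit protein whose mutation causes Diamond-Blackfan anaemia, was at 1299 and 1355 TPM in control and 1515 and 1534 TPM in oeDAZL. Both oeDAZL libraries were above both control libraries, by 0.20 on the log2 scale (SE 0.05), with an unadjusted P of 0.00844 and an adjusted p of 0.137 in limma. RPL38 (chr17:74203582-74210655, plus strand), which mouse embryos need for the translation of a set of Hox mRNAs, was at 277 and 288 TPM in control and 322 and 315 TPM in oeDAZL. Here too the groups did not overlap, with a log2 fold change of 0.17 (SE 0.05), an unadjusted P of 0.0147 and an adjusted p of 0.164 in limma.

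RPS15A (chr16:18781295-18790383, minus strand), a small subunit protein, was at 610 and 558 TPM in control and 676 and 654 TPM in oeDAZL, without overlap, which gave a log2 fold change of 0.19 (SE 0.06) with an unadjusted P of 0.0220 and an adjusted p of 0.184 in limma. RPL23A (chr17:28719985-28724359, plus strand), which sits at the exit of the peptide tunnel, was at 1187 and 1188 TPM in control and 1294 and 1295 TPM in oeDAZL. Its replicates were nearly identical within each group and the groups did not overlap, with a log2 fold change of 0.12 (SE 0.05), an unadjusted P of 0.0439 and an adjusted p of 0.235 in limma. The 4 genes kept their direction in all 14 alternative fits, but not their call. Without oeDAZL 1 or without oeDAZL 2 none of the 4 passed the unadjusted threshold in limma, with log2 fold changes of 0.21 and 0.19 for RPL27, 0.16 and 0.19 for RPL38, 0.16 and 0.21 for RPS15A and 0.12 and 0.12 for RPL23A. With all 4 libraries in the fit RPL27 and RPL38 passed it in 8 of the 9 alternative fits without crossed replicate numbers, RPS15A in 7 and RPL23A in 6. None of the 4 passed it without limma's trend, where 3.39% of all tested genes were called higher.

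With TPM as deposited, the differences between groups were small in every tested member. The log2 fold changes of the 79 members ranged from -0.23 for RPL37 to 0.23 for RPS27L, 73 members lay within 1.1-fold of control and all 79 within 1.2-fold. The 95% interval of limma lay wholly within 1.2-fold for 64 members and within 1.5-fold for 76, with RPS27L and RPL39L among the exceptions at 1.5-fold. By sign alone 38 members were above 0 and 41 below, with a median of -0.0018, where all tested genes had a median of -0.08 and 65.3% of them lay below 0. The 1535 other genes with a mean of at least 100 TPM, a level that 76 members reached, had a median of 0.00045. The large subunit had a median of -0.01 (18 above 0 and 26 below), the small subunit 0.01 (19 and 13) and the stalk -0.01 (1 and 2).

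**Figure D2:**
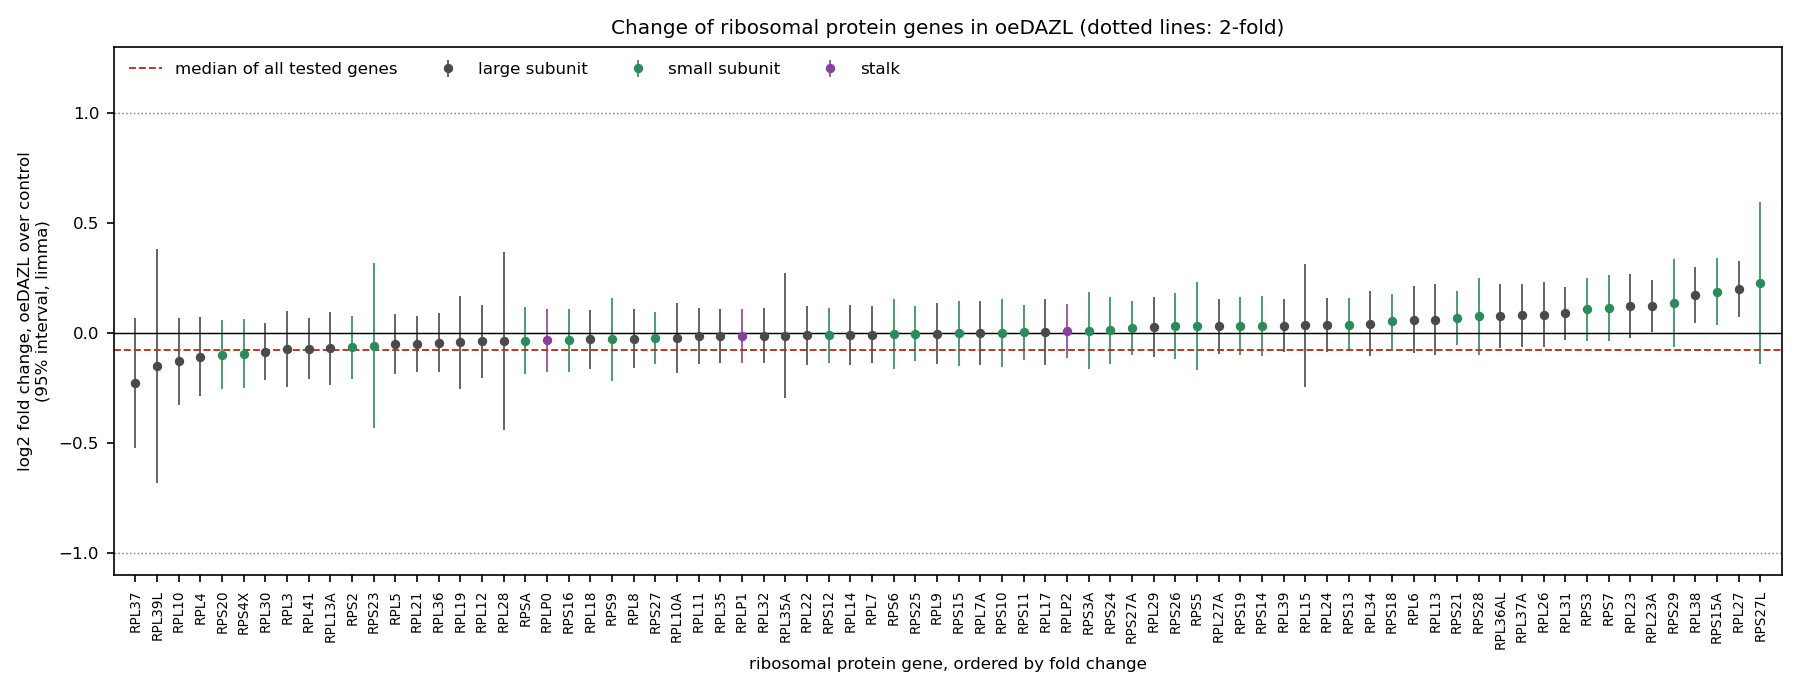
Log2 fold change of oeDAZL over control for 76 of the 79 tested members, ordered by size, with the 95% interval from limma and colours for the large subunit, small subunit and stalk. The points run from -0.23 to 0.23 and none reaches the dotted lines at 2-fold; the dashed line is the median of all tested genes, -0.08.

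This split depended on how the libraries were scaled. Under median-of-ratios scaling 75 members lay above 0 and 4 below, with a member median of 0.10. There 19 members passed the unadjusted P as higher, among them RPL26, RPL39, RPL36AL and RPS29, where 11.2% of all tested genes did. The other genes at 100 TPM or more also had a median of 0.10 under that scaling. Under quantile normalization 31 lay above 0 and 48 below, with a median of -0.02. There 3 were called higher and 4 lower, where 8.38% of all tested genes were called higher and 9.10% lower. Those lower were RPS2 (-0.18), RPL3 (-0.13), RPL13A (-0.15) and RPS20 (-0.15). With TPM rescaled without mitochondrial genes, whose share was higher in oeDAZL, 51 lay above 0 and 28 below, and 4 were called higher and 0 lower, where 5.67% and 13.8% of all tested genes were. Neither a common rise nor a common fall of the members held across these scalings. The other genes at 100 TPM or more had a median of 0.0011 under quantile normalization and of 0.02 without mitochondrial genes, beside -0.02 and 0.02 for the members.

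**Figure D3:**
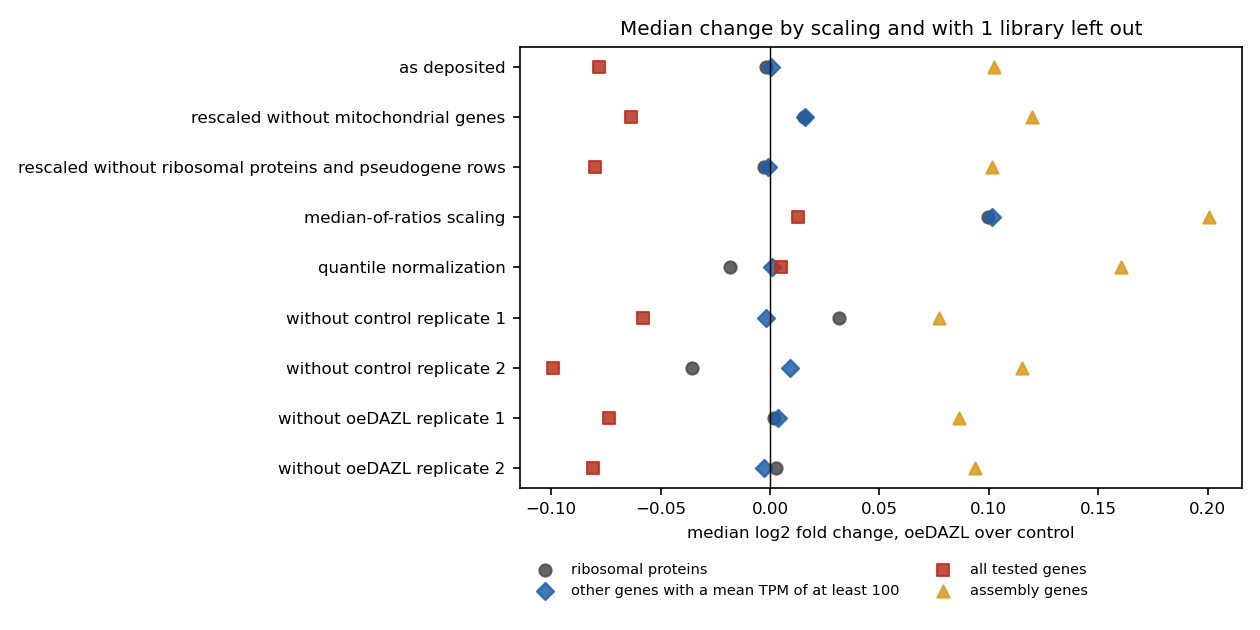
Median log2 fold change of oeDAZL over control (horizontal axis) for the ribosomal proteins, the other genes with a mean of at least 100 TPM, all tested genes and the ribosome assembly genes, under each scaling and after leaving out single libraries. The ribosomal proteins and the other abundant genes lie side by side in every scaling but quantile normalization, and apart when a control library is left out, and the assembly genes lie to the right of the other 3 sets in every row.

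The 2 oeDAZL values exceeded both control values for 17 of the 79 members (21.5%; 16.0% of all tested genes) and lay below both for 6 (7.59%; 38.4% of all tested genes). The groups thus did not overlap for 23 members, 29.1%, where 54.4% of all tested genes did not overlap. Under median-of-ratios scaling 61 members lay above both control libraries and 0 below, where 29.2% of all tested genes lay above.

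The 2 control libraries differed from each other by a median of 0.09 in size over the members on the log2 scale, the 2 oeDAZL libraries by 0.04, and the groups by 0.04. The group value compares means of 2 libraries, which vary less than single libraries, so it is not like for like with the others. Control 1 was higher than control 2 for 61 of the 79 members (77.2%), with a median log2 difference of 0.07, where control 1 was higher for 58.3% of all tested genes and for 48.5% of the other genes at 100 TPM or more. Control 1 was the highest of the 4 libraries for 43 members and control 2 the lowest for 34. The 2 oeDAZL libraries were closer, with oeDAZL 1 the higher for 40 members and a median difference of 0.0018. The mean of oeDAZL lay between the 2 control values for 40 members. Without control 1 the members' median was 0.03, and without control 2 it was -0.04. Without control 1, 9 members were called higher and 2 lower, where 4.67% and 10.3% of all tested genes were. Without control 2, 6 were called higher and 13 lower, where 8.04% and 19.7% of all tested genes were, and RPL27 also passed an adjusted p of 0.05 in limma. Without oeDAZL 1, 0 members were called higher and 0 lower (2.14% and 7.35% of all tested genes), and without oeDAZL 2, 0 were called higher and 1 lower (3.16% and 9.64%).

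**Figure D4:**
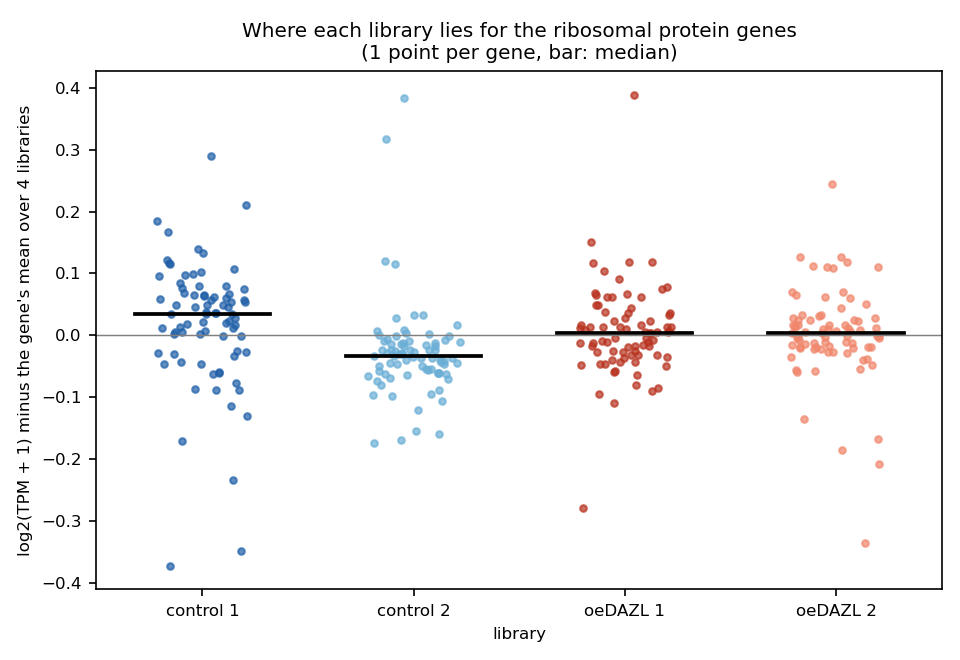
Log2(TPM + 1) of each of the 79 tested members in each library minus that gene's mean over the 4 libraries, with 1 point per gene and a bar at the median. The bar stands at 0.03 for control 1 and at -0.03 for control 2, and close to 0 for both oeDAZL libraries.

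A few members varied between replicates far more than the rest. The median coefficient of variation over the 4 libraries was 3.94%, and 71 members stayed under 10%. RPS23, which lies at the decoding centre and was named after its values were seen, was at 342 and 266 TPM in control and 328 and 256 TPM in oeDAZL, with replicate 1 the higher in both groups. In all, the highest library was at least 1.2 times the lowest for 11 members, among them RPS23, RPL10, RPL15, RPL28, RPL35A, RPL37, RPL39L, RPS15A, RPS27L and RPS29.

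The members with the lowest fold changes did not pass the unadjusted threshold either. RPL37, a large subunit protein, was at 130 and 102 TPM in control and 103 and 93.3 TPM in oeDAZL. Control 1 was high and the groups overlapped, with a log2 fold change of -0.23 (95% interval -0.52 to 0.07). It was -0.05 without control 1, and -0.40 and called lower without control 2. RPL10, which joins the large subunit late in its maturation, was at 1870 and 1621 TPM in control and 1545 and 1643 TPM in oeDAZL, with a log2 fold change of -0.13. RPL4, whose protein lines the exit tunnel, was at 1786 and 1674 TPM in control and 1700 and 1518 TPM in oeDAZL. The groups overlapped for both. RPS20 was at 1380 and 1248 TPM in control and 1231 and 1221 TPM in oeDAZL, so that both oeDAZL libraries lay below both control libraries by -0.10 on the log2 scale. Of the members with the largest positive values, RPS29 was at 294 and 339 TPM in control and 334 and 362 TPM in oeDAZL and its groups overlapped. Without control 2, RPL10 (-0.23) and RPS20 (-0.17) were called lower and RPS29 (0.24) higher.

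Some ribosomal proteins have a second gene, and these paralogs were among the least abundant members. RPL39L, a paralog of RPL39 known for its expression in the testis, was at 6.57 and 10.6 TPM in control and 8.01 and 6.93 TPM in oeDAZL, and its groups overlapped. RPL39 itself was at 706 and 688 TPM in control and 710 and 717 TPM in oeDAZL. RPS27L, a paralog that p53 induces, was at 25.1 and 35.1 TPM in control and 35.1 and 34.8 TPM in oeDAZL. Control 1 alone was low for RPS27L, and the groups overlapped. With 1 library left out, RPL39L was called lower (-0.46, without control 1) and RPS27L higher (0.46, without control 2). RPS27 was at 770 and 757 TPM in control and 753 and 752 TPM in oeDAZL. RPL36AL, a paralog of RPL36A, was at 99.2 and 97.8 TPM in control and 107 and 101 TPM in oeDAZL. The oeDAZL values lay just above those of control for RPL39 and RPL36AL and just below them for RPS27. None of the 3 was called with TPM as deposited. Under median-of-ratios scaling RPL39 (0.14) and RPL36AL (0.18) were called higher, where 11.2% of all tested genes were. RPL3L, the form of striated muscle, was listed at 0.0952 and 0.0580 TPM in control and at 0 in both oeDAZL libraries, and RPL10L, the form of the testis that stands in for the X-linked RPL10 in male germ cells, was listed at 0 in all 4 libraries.

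Many ribosomal protein genes have processed pseudogenes of nearly the same sequence, and the study kept only reads that map to 1 place, so a member's reads can be split with its copies or lost. The table holds 1232 rows named as ribosomal protein pseudogenes, of which 426 were above 0 in at least 1 library and 112 had a mean of at least 1 TPM. Together they took 5592 and 5497 TPM in control and 5323 and 5392 TPM in oeDAZL, 5.85% of the TPM of the members. RPS28 was the member for which the copies outweighed the gene, with 73.9 and 76.1 TPM in control and 75.1 and 83.3 TPM in oeDAZL, where its pseudogene row RPS28P7 was at 561 and 537 TPM in control and 525 and 528 TPM in oeDAZL. The level of RPS28 is for this reason uncertain. Copies were also large beside RPL9 (658 against 798 TPM, means over the 4 libraries), RPL7 (477 against 1374 TPM) and RPL21 (388 against 1030 TPM). The levels of these members, named after their values were seen, are uncertain too. Of the 112 rows that reached 1 TPM and were tested, 4 were called higher and 11 lower at the unadjusted P, where 5.02% and 15.2% of all tested genes were. The median log2 fold change of these rows was -0.05, and that of all tested genes was -0.08.

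Members with and without a TOP start had similar values. The 45 tested members with the start had a median log2 fold change of -0.0024, with 22 above 0, and the 18 tested members matched in the table without it had a median of 0.02, with 10 above 0. RPL38 and RPS27, whose tracts are shown above, had log2 fold changes of 0.17 and -0.02. RPL27 and RPS27L, whose listed starts show no tract, had 0.20 and 0.23.

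Genes around the ribosome were followed by fixed lists. Of 7 other subunit genes (among them FAU, RACK1, RPL36A, RPL22L1, RPL26L1 and RPL7L1), none was called at the unadjusted P, and their median was 0.03. RPL36A was at 350 and 418 TPM in control and 395 and 399 TPM in oeDAZL. Of 16 other mRNAs known to carry a TOP tract, 1 was called higher and 1 lower, where 5.02% and 15.2% of all tested genes were. NAP1L1, a histone chaperone, was higher in oeDAZL at 409 and 409 TPM against 372 and 347 TPM in control. HNRNPA1, a splicing factor, was lower at 1358 and 1414 TPM against 1583 and 1662 TPM. Neither passed the unadjusted P without oeDAZL 1 or without oeDAZL 2 (0.19 and 0.19 for NAP1L1 and -0.20 and -0.26 for HNRNPA1 on the log2 scale), and HNRNPA1 did not pass it under median-of-ratios scaling. Their adjusted p in limma was 0.163 and 0.123, the median of the list was 0.0027, and 8 genes lay above 0 and 8 below. The most abundant of them, the elongation factor gene EEF1A1, was at 7581 and 6896 TPM in control and 7682 and 7233 TPM in oeDAZL, and the groups overlapped.

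Genes for ribosome assembly, which make ribosomal RNA and process, join and export the subunits, lay mostly on the higher side. Of 32, 26 had a log2 fold change above 0 and 6 below, with a median of 0.10, and 19 (59.4%) lay above both control libraries where 16.0% of all tested genes did so. Only 2 passed the unadjusted P, both as higher, where 5.02% of all tested genes were called higher. NCL (nucleolin), the major nucleolar protein, was at 456 and 477 TPM in control and 536 and 542 TPM in oeDAZL, with a log2 fold change of 0.21 (SE 0.05), an unadjusted P of 0.00639 and an adjusted p of 0.125 in limma. DKC1, which turns uridines of ribosomal RNA into pseudouridine, was at 69.6 and 65.3 TPM in control and 83.5 and 77.9 TPM in oeDAZL, with a log2 fold change of 0.25 (SE 0.07), an unadjusted P of 0.00980 and an adjusted p of 0.144 in limma. Both oeDAZL libraries were above both control libraries for both genes. NCL did not pass the unadjusted P without oeDAZL 1 (0.22) or without oeDAZL 2 (0.20), nor DKC1 without oeDAZL 1 (0.21). The other 30 did not pass the threshold. The median of the list stayed above 0 in all the alternatives run, from 0.08 to 0.20, and the difference between this list and the ribosomal proteins was not tested.

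Of 12 regulators of ribosomal protein synthesis, 1 was called higher and 2 lower at the unadjusted P, where 5.02% and 15.2% of all tested genes were. TSC2, the brake on mTORC1, was at 94.7 and 79.0 TPM in control and 55.5 and 59.9 TPM in oeDAZL, with a log2 fold change of -0.58 (SE 0.10), an unadjusted P of 0.00103 and an adjusted p of 0.0896 in limma (from 0.0728 to 0.322 over the 9 alternative fits with all libraries and replicate numbers not crossed, 0.00622 in the fit with crossed replicate numbers that was added after seeing the data, and 0.0361 without control 2). LARP1, which binds the cap and the TOP tract, was at 154 and 148 TPM in control and 138 and 135 TPM in oeDAZL, with a log2 fold change of -0.14 (SE 0.06) and an adjusted p of 0.226 in limma. MYC, a transcription factor of many ribosome genes, was at 28.3 and 33.8 TPM in control and 37.0 and 37.4 TPM in oeDAZL, with a log2 fold change of 0.26 (SE 0.10) and an adjusted p of 0.224 in limma. The groups did not overlap for any of the 3, and each kept its direction in all 14 alternative fits. TSC2 passed the unadjusted P in all 14, MYC in 9 and LARP1 in 7. LARP1 was at -0.04 and not called under median-of-ratios scaling. Without control 1, without oeDAZL 1 and without oeDAZL 2, neither MYC (0.14, 0.27 and 0.25) nor LARP1 (-0.11, -0.16 and -0.13) passed it. MTOR itself was at 51.2 and 48.8 TPM in control and 54.4 and 51.6 TPM in oeDAZL, above both control libraries, and was not called.

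Read-through genes join the exons of a member to those of its neighbour and share reads with both, so their values are uncertain. RPS10-NUDT3 (chr6:34284887-34426071, minus strand) was at 2.26 and 2.15 TPM in control and 6.38 and 7.68 TPM in oeDAZL. Both oeDAZL libraries were above both control libraries, with a log2 fold change of 1.32 (SE 0.17), an unadjusted P of 0.000199 and an adjusted p of 0.0885 in limma (from 0.0881 to 0.322 over the 8 of those fits that tested it, 0.00959 with crossed replicate numbers, and 0.0449 without control 2). RPS10 itself was at 1453 and 1348 TPM in control and 1448 and 1354 TPM in oeDAZL, and NUDT3 was at 17.6 and 16.3 TPM in control and 14.3 and 14.4 TPM in oeDAZL. Neither was called, although the values of NUDT3 did not overlap. RPL17-C18orf32 was at 24.4 and 17.2 TPM in control and 19.9 and 14.4 TPM in oeDAZL, and its groups overlapped. RPL36A-HNRNPH2 was at 29.9 and 7.09 TPM in control and 1.03 and 0 TPM in oeDAZL, with both oeDAZL libraries below both control libraries and an adjusted p of 0.0904 in limma.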

How the data were processed

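Gene expression was deposited as TPM values, 1 column for each library. In the authors' methods and processing notes, reads were trimmed, mapped to hg38 with HISAT2, filtered for unique mapping and quantified with StringTie. The annotation release used for it is not given in the sources used here. TPM sums to the same total in each library and keeps no read depth, so no counting interval or floor was computed and precision comes from the spread between n = 2 libraries per group. The 6 miRNA libraries of the series were not used here.

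From 65003 entries, 45 copies of pseudoautosomal genes and 18 repeated entries were left out. Genes with a mean of at least 1 TPM (16687) were tested on log2(TPM + 1) in R 4.3.3 with the moderated linear model of limma 3.58.1, its prior variance following mean expression, as oeDAZL against control without covariates. Fold changes are on this scale, which understates those of low genes. P-values are two-sided. Calls used an unadjusted P of at most 0.05, alone or with a 2-fold change, and the Benjamini-Hochberg adjusted p over all tested genes. The model was run on simulated data with planted changes far larger than those of the members, so that run does not bear on changes of their size.

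Coordinates are those of GENCODE for genes and RefSeq (GRCh38.p14) for transcript starts. The name pattern for pseudogenes also matched the 3 stalk genes, which were left out of it.

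The members and gene lists were chosen with earlier results of these data known. Named were RPLP0, RPS6, the stalk, the 10 most abundant members, the 5 largest rises and falls, listed paralogs with their partners, members below the filter, read-through genes, and, in each other list, genes past the unadjusted P; the remaining other subunit genes, EEF1A1 and MTOR were added as context, and members named after their values were seen are marked so. A few genes that this rule names are not reported here, although they are counted in the totals and medians.

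The alternatives were a pseudocount of 0.1, no filter, a mean of at least 5 TPM, median-of-ratios scaling, quantile normalization, rescaling without mitochondrial genes or without the members and pseudogenes, no trend, replicate number as a block, and each library left out. A block with crossed replicate numbers was added after seeing the data.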

Additional observations from a re-analysis of the deposited data

How the results depend on the processing

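The number of members called higher at the unadjusted P, 4 with TPM as deposited, was 19 under median-of-ratios scaling and 0 without limma's trend, and ranged from 0 to 9 with each library left out; members called lower, 0 as deposited, were 4 under quantile normalization and ranged from 0 to 13. The adjusted count ranged from 0 to 1. The members' median was 0.10 under median-of-ratios scaling and ranged from -0.0354 to 0.0316 with a library left out; the log2 ratio of summed TPM was 0.10 and ranged from -0.0481 to 0.0361. Members with both oeDAZL libraries above both controls numbered 61 under median-of-ratios scaling, where 29.2% of all tested genes lay above. Members below both controls numbered 0 there and 15 under quantile normalization. The share of all tested genes below both controls was not computed for these scalings, so those counts cannot be weighed against it. None of the other subunit genes was called in the alternatives that kept all 4 libraries. Assembly calls, 2 as deposited, were 15 under median-of-ratios scaling and 10 under quantile normalization. They were 6 without a filter, 5 without mitochondrial genes and 1 without the trend. Calls of other TOP mRNAs were 4 under median-of-ratios scaling and 1 without the trend, and regulators had 1 without the trend. Of all tested genes, 19.4% were called in either direction under median-of-ratios scaling and 17.5% under quantile normalization. That share was 12.3% without a filter, 19.5% without mitochondrial genes and 17.3% without the trend. Calls in all these lists also changed with a library left out. With 1 library left out, the lone library of its group is assumed to vary like the others. Of the values under the alternatives of the 26 tested members that the naming rule picked, 335 kept their side of the threshold. Of the rest, 19 newly passed it and 10 no longer did, and no called value changed sign. RPL23A is not in this count, and passed the threshold in 6 of the 9 alternative fits with all libraries and replicate numbers not crossed.

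Replicate numbers are shared between the groups, and the labels do not say whether same-numbered libraries belong together. Deviations of same-numbered libraries correlated at r = -0.10 over 16687 tested genes and at -0.355 over the 79 tested members. With 2 libraries per group, these correlations cannot decide whether the numbers mark pairs. With the replicate number as a block, 3 members were called higher and 1, RPL37, lower, where 16.6% of all tested genes were called in either direction. With the numbers crossed, an alternative chosen after seeing the data, 3 members were called higher and 0 lower. In that fit 4 of the 16 other TOP mRNAs and 5 of the 12 regulators were called, and 24.1% of all tested genes in either direction. The unknown depth and 2 libraries per group limit what could be detected.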
